A study of Mus musculus with 2 samples.

Results

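The 33 genes described here take glucose from the blood to acetyl-CoA: the glucose transporters, the enzymes of glycolysis and of glycogen turnover, the lactate transporters, and the proteins that carry pyruvate into mitochondria and oxidize it there. They were chosen as a list of 38 gene symbols by pathway step and kept where the spots of both heart sections together held at least 20 UMIs (unique molecular identifiers, each counting 1 captured probe molecule). The files hold 19454 symbols, among them 33 of the list, and each of these passed, with 45 to 133283 UMIs. Tpi1, Eno1, Ldha, Ldhb and Mpc1 were not analysed here, so Eno3 was not compared with Eno1, nor Ldhb with Ldha. The data are Visium CytAssist libraries from formalin-fixed, paraffin-embedded hearts of 2 mice, with 1 section per genotype. The control mouse was α-MHC-MerCreMer+/− and the TOP2B transgenic mouse was α-MHC-MerCreMer+/− hTOP2B LSL/−, and each received 1 intraperitoneal dose of tamoxifen at 80 mg/kg. In both mice the α-MHC promoter drives a tamoxifen-dependent Cre in cardiomyocytes, and in the transgenic mouse Cre removes a STOP cassette so that a CAG promoter expresses human TOP2B from the Rosa26 locus. The labels give neither the age of the mice nor the time from injection to harvest.

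Glycolysis splits glucose into pyruvate in the cytosol, and the pyruvate dehydrogenase complex (PDC) turns pyruvate into acetyl-CoA inside mitochondria. The adult heart draws most of its energy from fatty acids and uses muscle isoforms at several glycolytic steps, whereas the fetal heart relies more on glucose and on the isoforms found in most cells. Many glycolytic genes are targets of hypoxia-inducible factors, which bind short sites that often hold an ACGTG core. Other forms of these sites were not searched here. Several muscle isoform genes carry sites for MEF2 (myocyte enhancer factor 2).

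Levels are given as UMIs per 1000000 UMIs of the section (CPM), and differences as log2 ratios (transgenic over control) with 95% intervals. The intervals cover counting error only. With 1 section per genotype no difference has a replicate check and no test was run, and section, animal and genotype cannot be told apart. Probes differ in yield, so levels were compared between sections and never between genes. Isoform shares depend on these yields, and only their change between sections or spots is read. Sums over genes and changes of a share in points also carry these yields and describe captured UMIs only. A spot is a small tissue region that can hold several cells, and in these sums fewer cells of a type and less RNA per cell cannot be told apart. Each section was cut into 4 quadrants at the middle of its tissue, which shows the spread inside a section and not that between animals.

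The control section had 1256 spots and 14376300 UMIs, and the transgenic section 924 spots and 12953389 UMIs. Cardiomyocyte markers were abundant in both, with 17 measured genes at 7.20% of control and 5.59% of transgenic UMIs. The share of Myh7, the fetal and slow myosin heavy chain of the mouse heart, in the UMIs of Myh6 and Myh7 was 0.182% in the control and 57.8% in the transgenic section. Mouse Top2b, which does not report the human transgene by itself, was at 106 and 102 CPM. The 8 measured erythroid markers made up 0.218% of control and 2.05% of transgenic UMIs, with 0.793% to 4.798% over the transgenic quadrants. In 54 transgenic and 8 control spots they held at least 10% of the UMIs, called erythroid-rich here, and the members made up 0.546% of the UMIs of those 54 spots against 1.68% in the other transgenic spots. Fibroblast markers went from 0.208% to 0.637%, macrophage markers from 0.0321% to 0.0631%, mural cell markers from 0.426% to 0.991% and atrial markers from 0.0993% to 0.656%, while endothelial markers stood at 0.101% and 0.0993%. Single genes carried the mural and atrial values, named after their values were seen. Des had 43374 and 112183 UMIs, and the other 9 mural genes made up 0.125% of UMIs in either section. Clu had 8260 and 73901 UMIs, and the other 9 atrial genes went from 0.0419% to 0.0858%. Single genes weighed on other lists too, with Mb of the cardiomyocyte list at 203381 and 53760 UMIs and Tnnt3 of the skeletal muscle list at 18 and 384. Those lists were not recomputed without them. Skeletal muscle markers made up 0.00122% and 0.00486%, neutrophil and lymphocyte markers 0.00284% and 0.00320%, and adipocyte markers 0.104% in either section. No measured gene of these 10 lists was at 0 in either section. The part of these markers in the results was not tested, except where a value without the spots is given.

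The members together held 2.31% of control UMIs and 1.65% of transgenic UMIs, with 2.27% to 2.35% over the control quadrants and 1.44% to 1.82% over the transgenic ones. Most muscle isoforms and the genes of pyruvate oxidation were lower in the transgenic section, and several isoforms of other tissues were higher. At least 2-fold lower were 12 of 33 members, where 5.6% of the 15227 genes with at least 20 UMIs were, and at least 2-fold higher were 4, where 13.7% of all genes were. All 4 transgenic quadrants lay below all 4 control quadrants for 14 members (13.1% of all genes) and above them for 10 members (30.3% of all genes), and the quadrants overlapped for 9. The members were thus lower more often than genes in general by both measures. Their counts of higher genes were near the shares of all genes. Those shares were not matched for depth, and 25 of the members had at least 1000 UMIs. Lists of other heart genes were lower as well, so these counts are not particular to the members. The 2-fold lower and quadrant-lower counts were 5 and 12 of 17 cardiomyocyte markers and 10 and 17 of 22 fatty acid oxidation genes. They were 6 and 15 of 17 tricarboxylic acid cycle genes. The median log2 ratio of the members was −0.12, where the median of all genes was 0.20. That shift of all genes depends on the scaling, being 0.05 with TMM or DESeq2 factors. Relative to it the members' median was −0.32, which a change of scaling cannot alter because scaling shifts every gene alike. By totals 18 members were lower and 15 higher, where 36.8% of all genes were lower and 63.2% higher. With either set of factors 21 were lower and 12 higher, because Pkm, Pygb and Gys1, all within 0.11 of 0, changed sign. Without the 54 and 8 erythroid-rich spots, a check added after the data were seen, 11 members were 2-fold lower and 4 higher, and the quadrant counts stayed at 14 and 10. Of the 17 cardiomyocyte markers 14 were themselves lower in the transgenic section, so spots chosen by their share cannot be read as chosen by cell content alone. Among spots above the section median in cardiomyocyte marker share, 8 members were 2-fold lower and 4 higher. These 8 were 7 of the 12 and Gapdh (−1.04), which had few UMIs, while Eno3 (−0.93), Pdk2 (−0.89), Slc16a1 (−0.89), Pdhb (−0.94) and Dld (−0.85) were within 2-fold there.

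**Figure D1:**
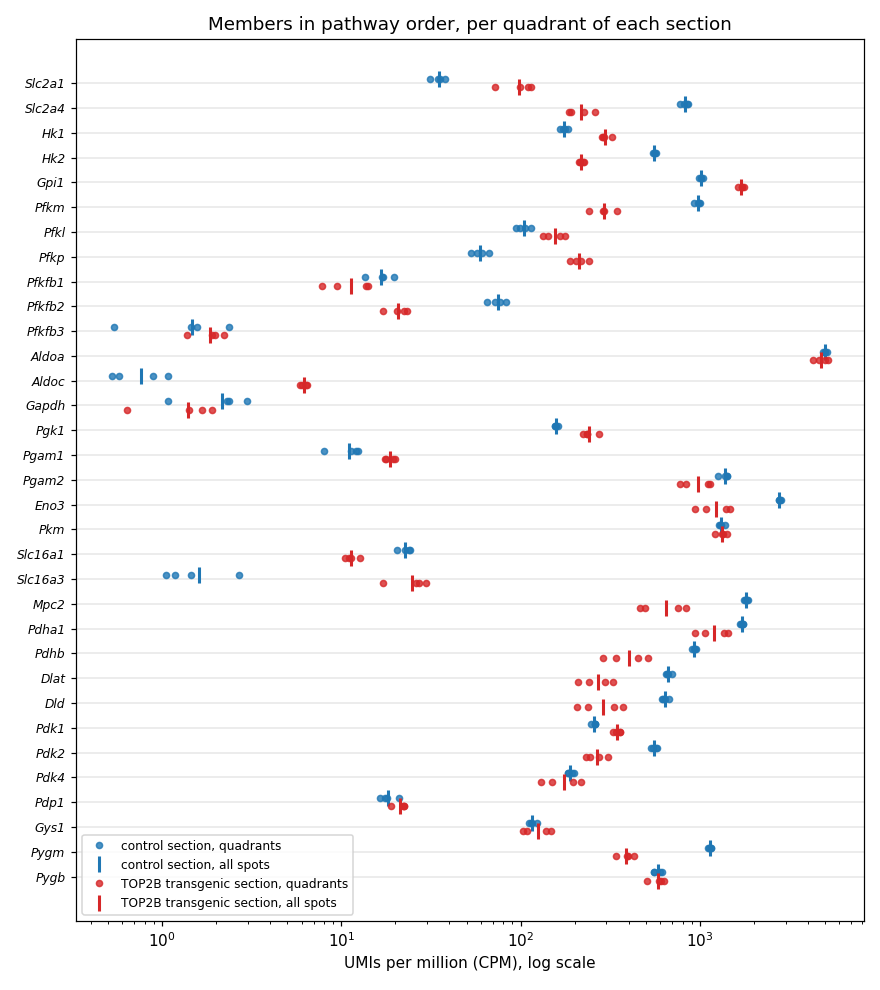
Level of each member in CPM (logarithmic axis), in pathway order from glucose transport to glycogen. Dots are the 4 quadrants of each section and bars the whole section, control in blue and TOP2B transgenic in red. The transgenic dots of Slc2a4, Pfkm, Pygm and Mpc2 lie left of the control dots, and those of Slc2a1, Pfkp, Aldoc and Slc16a3 lie right of them.

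**Figure D2:**
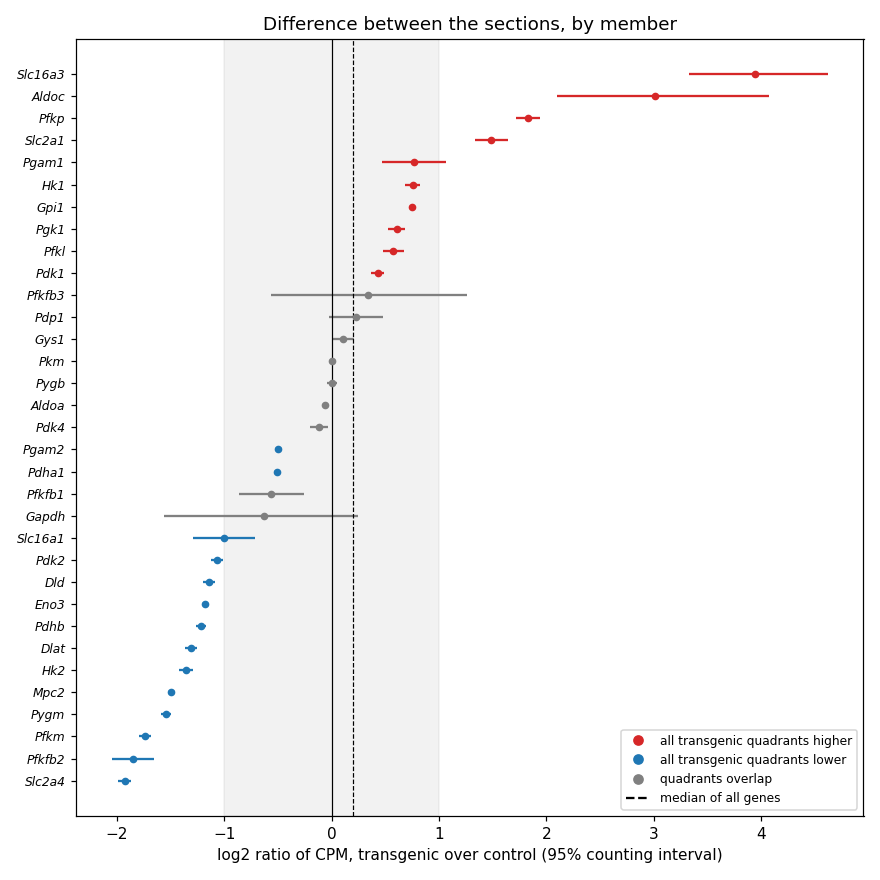
Log2 ratio (transgenic over control) of CPM for each member, sorted, with 95% counting intervals that are narrower than the dot for abundant genes. Blue marks members with every transgenic quadrant below every control quadrant, red the reverse and grey overlap. The shaded band is within 2-fold, the dashed line is the median of all genes (0.20), and values run from −1.93 for Slc2a4 to 3.94 for Slc16a3.

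Glucose enters cardiomyocytes through the insulin-responsive transporter GLUT4 (Slc2a4) and the basal transporter GLUT1 (Slc2a1), which is also the main transporter of many other cells. The promoter of Slc2a1 is shown because this gene differed in the direction opposite to Slc2a4. The window covers 250 bases before to 50 after the RefSeq start (GRCm38.p6, chr4:119108495-119108794, + strand), 5′ to 3′, with the ACGTG core in capitals.
Slc2a1: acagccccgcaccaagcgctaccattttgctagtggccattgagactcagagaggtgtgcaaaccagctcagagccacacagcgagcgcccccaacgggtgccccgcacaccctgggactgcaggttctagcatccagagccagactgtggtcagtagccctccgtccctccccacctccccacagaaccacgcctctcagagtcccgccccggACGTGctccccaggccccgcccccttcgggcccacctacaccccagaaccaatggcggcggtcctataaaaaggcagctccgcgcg
Slc2a4 was at 824 CPM in the control section (778 to 853 over quadrants) and at 217 CPM in the transgenic section (186 to 260). Its log2 ratio was −1.93 (−1.99 to −1.87), the lowest of the members, and fewer than 1% of all genes were lower (percentile 0.7). Slc2a1 was at 35.0 CPM (31.4 to 38.0) in the control and 98.1 CPM (72.2 to 115) in the transgenic section. The quadrants of the 2 sections did not overlap for either transporter. The log2 ratio of Slc2a1 was 1.49 (1.34 to 1.64), and it was 1.51 without the erythroid-rich spots and 1.29 in the cardiomyocyte-rich spots. The share of Slc2a4 in the UMIs of both transporters went from 95.9% (95.6 to 96.3) to 68.8% (67.4 to 70.2), a difference of −27.1 percentage points (−28.6 to −25.6). The share ranged from 61.8% to 78.3% over the transgenic quadrants, and it was 74.5% in the cardiomyocyte-rich and 62.0% in the cardiomyocyte-poor spots. Both transporters summed were at 859 and 315 CPM, a log2 ratio of −1.45.

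Hexokinase traps glucose as glucose 6-phosphate, with Hk2 as the insulin-sensitive isoform of muscle and Hk1 as the isoform of most tissues. The Hk2 promoter (GRCm38.p6, chr6:82774405-82774704, − strand, written 5′ to 3′ along the gene) is shown as that of a gene that was lower. Its window also holds the core marked in Slc2a1, here on the opposite strand and therefore reading CACGT, with capitals at both matches. Binding at the core was not measured.
Hk2: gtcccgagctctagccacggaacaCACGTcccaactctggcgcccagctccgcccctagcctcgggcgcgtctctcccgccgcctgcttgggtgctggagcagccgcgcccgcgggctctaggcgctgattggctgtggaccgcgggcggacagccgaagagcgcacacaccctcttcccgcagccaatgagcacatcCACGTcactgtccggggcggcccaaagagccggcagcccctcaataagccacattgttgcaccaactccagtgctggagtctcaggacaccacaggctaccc
Hk2 was at 558 CPM (547 to 570 over quadrants) in the control and 218 CPM (212 to 227) in the transgenic section, and the log2 ratio was −1.36 (−1.42 to −1.29). Hk1 was at 175 CPM (167 to 183) and 295 CPM (282 to 324), a log2 ratio of 0.75 (0.68 to 0.83). No quadrant of one section reached those of the other for either gene. Hk2 made up 76.1% (75.3 to 77.0) of hexokinase UMIs in the control and 42.5% (41.3 to 43.7) in the transgenic section. The transgenic share was 42.7% in cardiomyocyte-rich and 42.3% in cardiomyocyte-poor spots, and the difference between sections was −33.6 points in all spots and −33.5 points in the cardiomyocyte-rich ones. Gpi1, which converts glucose 6-phosphate to fructose 6-phosphate, was at 1013 CPM and 1702 CPM. Its log2 ratio was 0.75 (0.72 to 0.78), and all transgenic quadrants (1620 to 1765) were above the control ones (987 to 1038).

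Phosphofructokinase commits sugar to glycolysis, and its subunits are named for muscle (Pfkm), liver (Pfkl) and platelet (Pfkp). Pfkm was at 971 CPM (927 to 999) in the control and 291 CPM (242 to 346) in the transgenic section, and the log2 ratio was −1.74 (−1.79 to −1.69). Pfkp was at 59.3 CPM (52.7 to 66.2) and 210 CPM (187 to 241), a log2 ratio of 1.83 (1.72 to 1.94). Pfkl was at 104 and 155 CPM, a log2 ratio of 0.58 (0.48 to 0.67). All 3 subunits had quadrants that did not overlap between sections, Pfkm below and the others above. The Pfkm share of the 3 subunits went from 85.6% (85.1 to 86.2) to 44.4% (43.3 to 45.4), a difference of −41.3 points. It was the largest difference in points of the 6 isoform sets measured. Points depend on the control share, so they do not rank the sets by isoform change. All 3 summed were at 1134 and 656 CPM. The bifunctional enzymes that make or remove fructose 2,6-bisphosphate, an activator of phosphofructokinase, include the heart isoform Pfkfb2. Pfkfb2 was at 74.3 CPM (65.2 to 83.2) and 20.6 CPM (17.2 to 23.1), a log2 ratio of −1.85 (−2.05 to −1.65). Pfkfb1 had 239 and 146 UMIs, with a log2 ratio of −0.56 (−0.87 to −0.26) and overlapping quadrants. Pfkfb3, an isoform induced in hypoxia, had only 21 and 24 UMIs, and a difference was not detectable at this depth (0.34, −0.56 to 1.26).

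**Figure D3:**
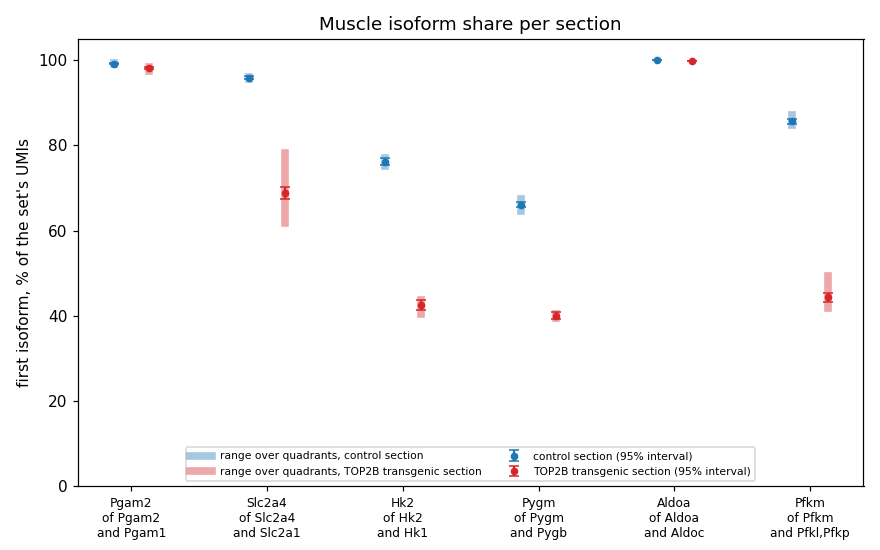
Share of the first-named isoform in the UMIs of its set, in percent, for the control (blue) and TOP2B transgenic (red) section. Points carry 95% Clopper-Pearson intervals, and the pale bars span the 4 quadrants. The shares of Slc2a4, Hk2, Pygm and Pfkm differ by −41.3 to −26.0 points between the sections, and those of Pgam2 and Aldoa by −1.09 and −0.114 points.

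The steps of glycolysis below phosphofructokinase were mixed in direction. Aldolase cleaves fructose 1,6-bisphosphate, and its muscle form Aldoa was at 4982 CPM in control tissue and 4760 CPM in transgenic tissue. The Aldoa log2 ratio was −0.07 (−0.08 to −0.05), the quadrants overlapped, and in the cardiomyocyte-rich spots the value was 0.04. The brain isoform Aldoc had 11 UMIs (5.5 to 19.7) in the control and 80 (63.4 to 99.6) in the transgenic section, and the log2 ratio was 3.01 (2.10 to 4.07). It was 1.99 in the cardiomyocyte-rich spots and 2.02 with 1 CPM added to both levels. With so few UMIs the Aldoa share of both was 99.98% and 99.87%. Gapdh, an abundant transcript in nearly all tissues, had 31 and 18 UMIs, so the probe counts cannot be read as its level, and its log2 ratio of −0.63 (−1.56 to 0.25) included 0. Pgk1, which makes the first ATP of the pathway, was at 158 CPM (155 to 162) and 240 CPM (222 to 272), a log2 ratio of 0.61 (0.53 to 0.69).

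Phosphoglycerate mutase comes as the muscle form Pgam2 and the widely expressed form Pgam1. Both promoters are shown because the isoforms differed in opposite directions. In the Pgam2 window (GRCm38.p6, chr11:5803747-5804046, − strand) capitals mark the one match to the MEF2 motif, and in the Pgam1 window (chr19:41911621-41911920, + strand) they mark the ACGTG core.
Pgam2: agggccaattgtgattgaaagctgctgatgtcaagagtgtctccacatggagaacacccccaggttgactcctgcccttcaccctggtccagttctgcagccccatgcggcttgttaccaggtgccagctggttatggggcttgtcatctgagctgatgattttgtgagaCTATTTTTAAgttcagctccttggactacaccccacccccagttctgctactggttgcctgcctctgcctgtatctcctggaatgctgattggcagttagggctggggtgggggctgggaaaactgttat
Pgam1: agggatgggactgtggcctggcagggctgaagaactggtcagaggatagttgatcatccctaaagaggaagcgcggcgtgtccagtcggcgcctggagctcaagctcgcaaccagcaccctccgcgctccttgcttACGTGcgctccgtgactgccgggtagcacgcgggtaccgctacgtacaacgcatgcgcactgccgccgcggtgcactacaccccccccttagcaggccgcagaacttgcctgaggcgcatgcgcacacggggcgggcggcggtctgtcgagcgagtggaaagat
Pgam2 was at 1371 CPM (1265 to 1422) and 973 CPM (777 to 1144), a log2 ratio of −0.50 (−0.53 to −0.46) that was −0.25 in the cardiomyocyte-rich spots. Pgam1 was at 10.99 CPM (8.0 to 12.4) and 18.7 CPM (17.5 to 20.02), a log2 ratio of 0.77 (0.47 to 1.06). Quadrants of neither isoform overlapped. The Pgam2 share moved from 99.2% (99.1 to 99.3) to 98.1% (97.9 to 98.3), and a share this near its upper limit moves by few points. Eno3, the muscle enolase, was at 2771 CPM (2744 to 2815) in the control and 1226 CPM (939 to 1474) in the transgenic section. Its log2 ratio was −1.18 (−1.20 to −1.15), with every transgenic quadrant below every control quadrant. Pkm, the pyruvate kinase gene of muscle and most other tissues, was at 1315 and 1321 CPM, a log2 ratio of 0.01 (−0.02 to 0.04) that included 0. The counts do not separate the splice forms of Pkm.

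Lactate crosses the cell membrane through MCT1 (Slc16a1), which in the heart mainly brings lactate in, and MCT4 (Slc16a3), a low-affinity exporter of glycolytic cells. The Slc16a3 promoter (GRCm38.p6, chr11:120948817-120949116, + strand) is shown because this gene had the highest log2 ratio of the members, and capitals mark its ACGTG cores.
Slc16a3: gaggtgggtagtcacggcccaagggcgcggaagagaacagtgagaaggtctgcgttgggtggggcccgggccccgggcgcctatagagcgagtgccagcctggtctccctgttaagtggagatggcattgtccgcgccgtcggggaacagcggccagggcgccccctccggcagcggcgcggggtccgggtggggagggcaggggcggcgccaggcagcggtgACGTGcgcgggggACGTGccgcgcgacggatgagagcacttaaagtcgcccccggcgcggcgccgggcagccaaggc
Slc16a3 had 23 UMIs (14.6 to 34.5) in the control and 319 (285 to 356) in the transgenic section, which equals 1.60 and 24.6 CPM. Its log2 ratio was 3.94 (3.33 to 4.62), the transgenic quadrants (17.1 to 29.6 CPM) all lay above the control ones (1.05 to 2.70), and percentile 99.5 of all genes was reached. In transgenic spots Slc16a3 was lower where cardiomyocyte markers were rich (log2 ratio of rich over poor −0.81), and its difference between sections within the cardiomyocyte-rich spots was 3.38. Slc16a1 was at 22.7 CPM (20.4 to 24.3) and 11.3 CPM (10.5 to 12.7). Its log2 ratio of −1.003 (−1.29 to −0.72) just passed the 2-fold limit, and it was −0.99, within 2-fold, without the erythroid-rich spots.

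At the pyruvate step the members of the oxidizing route were lower together. Mpc2, a subunit of the mitochondrial pyruvate carrier, was at 1813 CPM (1765 to 1856) in the control and 644 CPM (462 to 841) in the transgenic section, and the log2 ratio was −1.49 (−1.53 to −1.46). Pdha1 and Pdhb encode the E1 component of the PDC, Dlat the E2 component and Dld the E3 component that is shared with other dehydrogenases. Pdha1 was at 1708 and 1199 CPM, a log2 ratio of −0.51 (−0.54 to −0.48). Pdhb was at 930 and 399 CPM (−1.22, −1.27 to −1.17). Dlat was at 665 and 269 CPM (−1.31, −1.36 to −1.25). Dld was at 636 and 288 CPM (−1.15, −1.20 to −1.09). All 4 of these PDC genes had transgenic quadrants below every control quadrant. In the cardiomyocyte-rich spots the log2 ratios were −0.26 for Pdha1, −0.94 for Pdhb, −1.10 for Dlat, −0.85 for Dld and −1.17 for Mpc2, so Pdhb and Dld were within 2-fold there.

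The kinases that phosphorylate and switch off the PDC did not differ in one direction. Pdk2, an abundant heart isoform, was at 557 CPM (535 to 574) and 266 CPM (233 to 308), a log2 ratio of −1.07 (−1.13 to −1.01). Pdk1, an isoform induced in hypoxia, was at 256 CPM (246 to 260) and 345 CPM (328 to 360), a log2 ratio of 0.43 (0.37 to 0.49). Pdk4, induced by fasting and fatty acids, was at 189 and 174 CPM with overlapping quadrants. Its log2 ratio of −0.12 (−0.20 to −0.04) became 0.12 in the cardiomyocyte-rich spots. Pdp1, a phosphatase that switches the PDC back on, had 262 and 276 UMIs and a log2 ratio of 0.23 (−0.02 to 0.47), which included 0.

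Glycogen is built by glycogen synthase (Gys1) and broken down by glycogen phosphorylase, of which Pygm is the muscle and Pygb the brain form, both expressed in heart. Pygm was at 1131 CPM (1106 to 1151) and 389 CPM (339 to 429), a log2 ratio of −1.54 (−1.59 to −1.50). Pygb was at 581 and 583 CPM, a log2 ratio of 0.00 (−0.04 to 0.05). The Pygm share of both accordingly went from 66.1% (65.5 to 66.6) to 40.0% (39.2 to 40.9), through Pygm alone by totals, and Pygb was −0.15 with TMM factors. Gys1 was at 116 and 125 CPM with overlapping quadrants, a log2 ratio of 0.11 (0.01 to 0.21) that was −0.05 with TMM factors.

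The isoform shares were also read spot by spot. UMIs were summed over the 4 sets whose shares differed most in points between the sections (Slc2a4, Hk2, Pfkm and Pygm against Slc2a1, Hk1, Pfkl, Pfkp and Pygb). The sets were chosen after their values were seen and the Pgam2 and Aldoa sets were left out, so the difference of the sum between sections restates those above. The muscle isoforms made up 78.5% (78.2 to 78.8) of the control sum and 45.4% (44.9 to 45.9) of the transgenic sum. Over quadrants the share ran from 77.4% to 79.3% in the control and from 43.8% to 48.2% in the transgenic section. Among spots with at least 20 of these UMIs (1227 control and 818 transgenic) the median share was 78.8% in the control, with the 10th and 90th percentiles at 70.6% and 86.5%. In the transgenic section the median was 45.8% and these percentiles were 33.3% and 57.1%. The SD over spots was 6.33 points in the control and 9.26 points in the transgenic section, where counting error alone would give 5.97 and 8.40. The transgenic share was 46.2% in cardiomyocyte-rich and 44.4% in cardiomyocyte-poor spots, and 45.2% at the tissue edge and 45.5% away from it. The sum hides sets that differ, since in the same cardiomyocyte-rich and cardiomyocyte-poor spots the Slc2a4 share was 74.5% and 62.0% and the Pygm share 39.2% and 41.1%.

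**Figure D4:**
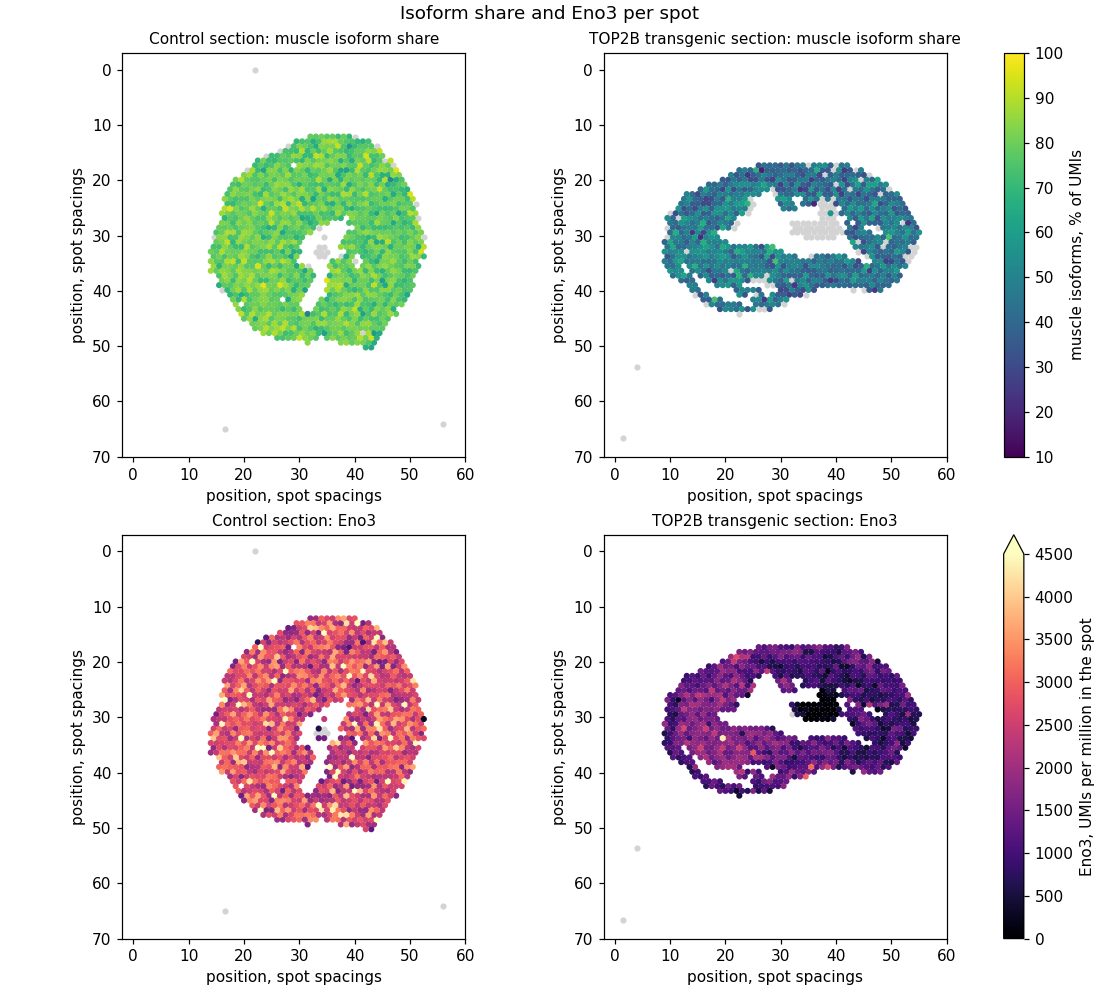
Maps of both sections with each spot at its array position in spot spacings. Upper maps show the share of Slc2a4, Hk2, Pfkm and Pygm in the UMIs of their isoform sets, in percent, and lower maps show Eno3 in CPM of the spot; grey spots had under 20 isoform UMIs (upper) or under 1000 UMIs (lower). The section values of the share are 78.5% and 45.4%, and the section levels of Eno3 are 2771 and 1226 CPM.

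The spatial pattern of the members was measured by Moran's I, which is near 0 when neighboring spots are unrelated and near 1 when they are alike. In the values that the authors deposited, the median over members was 0.0284 in the control and 0.229 in the transgenic section. The medians of all genes, not matched for depth, were −0.000537 and 0.00839. Moran's I was higher in the transgenic section for 28 of 33 members and for 74.3% of the 15237 rows with at least 20 UMIs. Of the 25 members with at least 1000 UMIs 24 had the higher value there, as had 97.2% of all 4397 rows at that depth. Aldoa (0.67), Eno3 (0.61), Gpi1 (0.60) and Pgam2 (0.58) had the highest values there, and Pgam2 (0.13) had the highest value in the control. The erythroid-rich spots bear on these values, so Moran's I was recomputed from CPM per spot with and without them, a step added after the data were seen. With all spots the medians were 0.0181 and 0.172, and without the erythroid-rich spots they were 0.0170 and 0.104. Gpi1 went from 0.42 to 0.11 and Aldoa from 0.55 to 0.25 in the transgenic section. Mpc2 (0.60 to 0.58), Pdha1 (0.56 to 0.48), Pgam2 (0.54 to 0.46) and Eno3 (0.54 to 0.45) moved less. Hk1 went from 0.09 to −0.03. The transgenic value was above the control value for 30 of 33 members with all spots and for 29 without the erythroid-rich ones. No share of all genes is given for the recomputed values, so these counts are not read as particular to the members.

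Spots rich in cardiomyocyte markers were set against the poor spots of the same section. The log2 ratio of cardiomyocyte-rich over cardiomyocyte-poor spots was 0.82 for Mpc2, 0.73 for Pdhb, 0.72 for Dld, 0.68 for Pgam2, 0.63 for Pdk4, 0.61 for Eno3 and 0.58 for Pdha1 in the transgenic section. In the control section the same ratios lay between 0.01 and 0.10. The spots compared also differed less there, with cardiomyocyte markers at 7.58% of UMIs in the rich and 6.78% in the poor spots. In the transgenic section these shares were 6.42% and 4.73%. Without the erythroid-rich spots the transgenic ratios were 0.79 for Mpc2 and 0.57 for Eno3. The transgenic ratio was 0.47 for Slc2a4, 0.27 for Pygm, 0.25 for Pfkm, −0.04 for Hk2, −0.03 for Pkm and −0.37 for Slc2a1. Among members with few UMIs it was 0.93 (0.42 to 1.45) for Pfkfb1, −0.81 for Slc16a3 and −0.95 for Aldoc. Fatty acid oxidation genes held 2.16% of UMIs in the rich and 1.27% in the poor transgenic spots. Tricarboxylic acid cycle genes held 1.19% and 0.739%, so higher values in the rich spots are not particular to the members. The poor spots of the transgenic section also held more fibroblast marker UMIs (0.822% against 0.459%), atrial marker UMIs (0.858% against 0.462%) and erythroid marker UMIs (3.35% against 0.799%). Of the 85014 atrial marker UMIs of that section Clu alone held 73901, and the comparison of spots was not made without Clu.

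The 885 transgenic spots with at least 20 UMIs of Myh6 and Myh7 were also sorted into 4 bins of like size by the Myh7 share, which ran from 22.7% to 82.9%. The members held 1.78%, 1.73%, 1.62% and 1.52% of UMIs from the lowest to the highest bin. The interval of the log2 ratio of the highest over the lowest bin lay below 0 for 14 members (5.54% of all genes), above 0 for 0 members (10.8% of all genes), and included 0 for 19. Rarer genes have wider intervals, which enters the shares of all genes. The ratio was −0.58 for Mpc2 (−0.67 to −0.49), −0.49 for Gys1 (−0.69 to −0.29), −0.48 for Eno3 (−0.55 to −0.42), −0.47 for Pdha1 (−0.54 to −0.41) and −0.44 for Pgam2 (−0.51 to −0.36). For the muscle isoforms that differed most between sections it was 0.09 for Slc2a4 (−0.06 to 0.24), 0.11 for Pfkm (−0.02 to 0.25), 0.05 for Pygm (−0.07 to 0.16) and −0.08 for Hk2 (−0.24 to 0.07). The isoform share summed over the 4 sets was 44.4%, 45.7%, 45.5% and 46.0% over the bins. From the lowest to the highest bin, edge spots went from 15.8% to 48.4% of spots. Erythroid markers went from 0.802% to 1.53% and fibroblast markers from 0.586% to 0.752% of UMIs. Cardiomyocyte markers held 5.77%, 5.93%, 5.63% and 5.25% of UMIs over the bins. The part of edge spots and of these markers in the values of the members was not tested. No counts over the bins are given for the other heart gene lists, so the fall is not read as particular to the members.

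**Figure D5:**
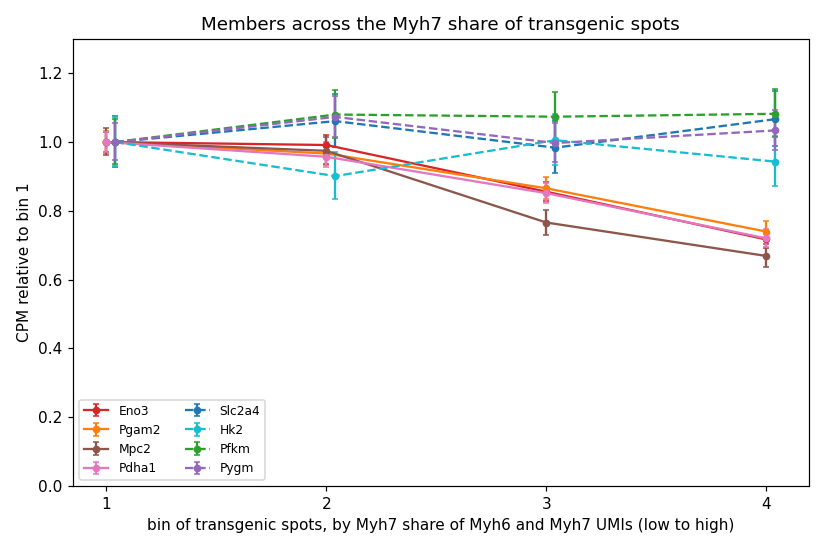
CPM in 4 bins of the transgenic spots sorted by the Myh7 share of Myh6 and Myh7 UMIs, relative to the lowest bin, with 95% Poisson intervals of each bin's own count. Solid lines are Eno3, Pgam2, Mpc2 and Pdha1, which are lowest in the highest bin (log2 ratios −0.58 to −0.44). They were picked from the 14 members whose interval lay below 0, and others of these, such as Gys1 (−0.49), are not drawn. Dashed lines are Slc2a4, Hk2, Pfkm and Pygm, picked by their difference between sections. Their log2 ratios of the highest over the lowest bin are −0.08 to 0.11.

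The promoter windows add a description of sequence only. Windows were found for 36 of the 38 listed genes (56 windows), with none for Slc2a4 and Pdp1. The 56 include windows of Tpi1, Eno1, Ldha, Ldhb and Mpc1, whose levels were not analysed here. ACGTG on either strand stood in at least 1 window of 18 of the 31 measured members that had windows, and in 41.1% of the 56 windows against 19.6% of all 32851 windows. It was present for 3 of the 4 members at least 2-fold higher (Aldoc, Slc16a3 and Slc2a1) and for 7 of the 11 members with windows among those at least 2-fold lower (Hk2, Pdhb, Pdk2, Pfkfb2, Pfkm, Pygm and Slc16a1). CACGTG, the E-box that contains this core, was in 10.7% of the 56 windows, among them 1 of Ldha, and in 7.15% of all windows. It was present for 0 of the 4 members that were 2-fold higher and for 4 of the 11 that were 2-fold lower (Pdk2, Pfkfb2, Pfkm and Slc16a1). The MEF2 motif was in windows of Pgam2 and Pfkfb1, which made up 3.57% of the 56 windows, and in 3.19% of all windows. It was present for 0 of the 11 members that were 2-fold lower and 0 of the 4 that were 2-fold higher. For the counts by gene no share over all genes was computed, and a gene with several windows can hold a match more easily. Windows of a gene can overlap, as for Aldoa, so the same site can enter the shares of windows more than once.

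Genes around the pathway were taken from further lists. Of all genes 36.8% were lower and 63.2% higher, with a median of 0.20. Counts near these shares are not read as a result about a list. Of 19 measured other genes of glucose transport, glycolysis and pyruvate handling, 8 were lower and 11 higher, with a median log2 ratio of 0.10. They ran from Pdp2, the second PDC phosphatase, at 34.4 and 5.87 CPM (−2.55), to Pdk3, a further PDC kinase, at 3.48 and 11.8 CPM (1.76). The other 19 glycogen genes had a median of 0.24, from Phkg1, a catalytic subunit of phosphorylase kinase (−1.28), to Stbd1, a glycogen-binding protein (0.91). Of 7 measured pentose phosphate genes 3 were lower and 4 higher, from Rpia (−0.79) to G6pdx, the entry enzyme of that route (0.90). The 7 hexosamine genes had a median of 0.39, from Gnpnat1 (−0.24) to Pgm3 (1.504). The 10 genes of the NADH shuttles, which carry cytosolic reducing power into mitochondria, had a median of −0.85 with 9 lower, from the aspartate-glutamate carrier Slc25a13 (−1.90) to the glycerol phosphate dehydrogenase Gpd1 (1.61). Among 11 regulators of uptake, 5 were lower and 6 higher, from Tbc1d4, which acts in GLUT4 traffic under insulin (104 and 28.3 CPM, −1.88), to Prkab2, a subunit of AMP-activated kinase (1.78).

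Set beside the members' median of −0.12, the median was −0.90 for 22 genes of fatty acid oxidation (21 lower, from Hadh at −1.69 to the fatty acid transporter Cd36 at 0.27) and −0.92 for 17 genes of the tricarboxylic acid cycle (all 17 lower, from Dlst at −1.61 to Idh3b at −0.16). These lists held 3.14% and 1.69% of control UMIs and 1.72% and 0.968% of transgenic UMIs. The members held 2.31% of control and 1.65% of transgenic UMIs. Their median gives equal weight to several isoforms of a step, some with few UMIs. Mpc2 and the PDC genes, with log2 ratios of −1.49 to −0.51, lay in the range of those mitochondrial lists, whereas the enzymes of the glycolytic steps ran from −1.74 for Pfkm to 3.01 for Aldoc. Aldoc had only 11 and 80 UMIs. With measured isoforms summed, the steps from hexokinase to pyruvate kinase ran from −1.18 for enolase to 0.75 for Gpi1, each with 1 measured gene. Where several isoforms were measured, phosphofructokinase was at −0.79, hexokinase at −0.52, phosphoglycerate mutase at −0.48 and aldolase at −0.06.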

How the data were processed

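Both sections were Visium CytAssist libraries of formalin-fixed, paraffin-embedded mouse heart, counted by the authors with Space Ranger 2.0.0 (GRCm39 in the submitters' processing notes). The deposited values used were raw UMI counts per gene and spot under tissue, and Moran's I per gene, a score taken as the authors deposited it, with its input scale not given in the sources used here. Rows with the same symbol were summed (Aldoa had 2 rows). The UMIs of each section were added up (14376300 and 12953389) and given as CPM. A count of 0 would allow up to 3 counts, or 0.209 and 0.232 CPM, and no member was at 0. Ratios carry exact conditional binomial, counts exact Poisson and shares Clopper-Pearson 95% intervals, checked on simulated counts. Spots are not replicates, so no test over spots was run.

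The members and lists were chosen with earlier results of these data known. All members were named, and of the other pathway lists the gene with the highest and the lowest ratio. The sets of Pfkm, Aldoa and Pygm were added to the listed isoform pairs. Edge spots had fewer than 6 neighbors under tissue. The scaling was changed to TMM factors (edgeR 4.0.16), to size factors (DESeq2 1.42.0, R 4.3.3) and to totals that left out the 50 most abundant genes. Further alternatives were 5 choices of spots, a mean over spots, 1 CPM added, and filters of 1 and 200 UMIs. Promoter windows came from RefSeq (GRCm38.p6), matched by symbol, so no gene coordinates of the authors' build are given. Other work used Python 3.11.15, scipy 1.17.1 and pandas 2.3.3.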

Additional observations from a re-analysis of the deposited data

How the results depend on the processing

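The number of sections sets the main limit, since 1 section per genotype gives no measure of the spread between animals. The median of the members stayed negative under every alternative run (−0.31 with at least 200 UMIs to −0.10 away from the tissue edge), and between 8 and 12 members were 2-fold lower and between 3 and 5 were 2-fold higher. The lowest of these counts, 8, came from the cardiomyocyte-rich spots. Of 330 values of single members under an alternative, 228 stayed inside the counting interval, 98 moved outside it in the same direction or from an interval that included 0, and 4, all of members whose interval left out 0, changed sign. These were Aldoa (0.041) and Pdk4 (0.12) in the cardiomyocyte-rich spots, and Gys1 under TMM scaling (−0.052) and under DESeq2 scaling (−0.045). Pkm, Pygb and Pfkfb3, whose intervals included 0, also changed sign under some alternatives, and with them 16 values of 6 members did. The cause was not tested. The Slc2a4 share differed by −21.5 points in cardiomyocyte-rich and −28.7 points in erythroid-poor spots, and the Pgam2 share by −0.688 and −1.39 points. Gapdh and Pfkfb3 had only 49 and 45 UMIs over both sections. No paired analysis was possible because each genotype had 1 section.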
